A study of Mus musculus with 10 samples.

Results

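The exonic binding sites of KLF1 and KLF3 in mouse erythroid cells are the peaks whose summits the authors annotated as UTR (untranslated exon) or CDS (coding exon). They were taken from the authors' peak lists by that annotation alone, and each list was kept apart. The KLF1 list held 183 of them among 3800 peaks, 123 UTR and 60 CDS, which were 180 distinct intervals assigned to 177 genes. The KLF3 list held 259 among 4579 peaks, 173 UTR and 86 CDS, which were 252 distinct intervals assigned to 248 genes. Together they were 442 of 8379 listed peaks.

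The study mapped binding of both factors and measured newly made RNA when KLF3 is active. KLF3 was immunoprecipitated with an estrogen receptor antibody from clone C of J2E-KLF3-ER, the J2E line with a KLF3-ER fusion that 4-hydroxytamoxifen activates. KLF1 was immunoprecipitated with a KLF1 antibody from clones A and C of K1-ER, erythroblasts null for KLF1 that carry a KLF1-ER transgene. Each chromatin library, inputs included, was made from 3 pooled replicates after 3 h of induction, so there is 1 library per factor and no spread between replicates. RNA labelled with 4-thiouridine for 30 min came from 3 libraries of J2E, a wildtype immortalised fetal liver erythroid line with no transgene, and from 3 libraries of J2E-KLF3-ER, one each of clones A, C and E. The J2E-KLF3-ER libraries and J2E libraries 1 and 2 received tamoxifen, and the third J2E library received ethanol vehicle. All fusions are transgenes, and no J2E-KLF3-ER library lacked tamoxifen. Because the cell line and the antibody change together with the factor, their parts in a difference between the KLF1 and KLF3 lists cannot be told apart. The labels do not state separate cultures for the J2E libraries, and the p-values of the RNA comparison then reflect the spread between libraries, which may be technical.

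KLF1 and KLF3 are zinc finger proteins that bind CACCC boxes and related GC-rich motifs. KLF1 is an erythroid activator of globin, heme, membrane and cell cycle genes. KLF3 recruits the corepressor CtBP and acts mainly as a repressor, and its own gene is a KLF1 target. Sites inside exons can lie in a 5′ UTR next to the promoter, deep in the coding part of a gene or in a 3′ UTR.

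The erythroid marker genes Gata1, Alas2, Slc4a1, Epor and Tfrc were transcribed in J2E. The globin genes Hba-a1 and Hbb-b1 were looked for too, but no row carried either name alone, so they are not among these 5. In the authors' deposited table, which gives 1 pooled value per group, Gata1, the master erythroid factor, was at 30.6 FPKM (fragments scaled to gene length and library size) and Tfrc, the transferrin receptor gene, at 102 FPKM. The FPKM values of these 5 summed to 264 in J2E and 196 in J2E-KLF3-ER, and by the authors' deposited table Slc4a1 and Epor, the band 3 and erythropoietin receptor genes, fell by 0.91 and 1.12 on the log2 scale (q = 0.00408 for each), while the other 3 were not called. In that table, the authors' deposited table, 6 of 14 markers of other blood cells were above 1 FPKM in J2E, led by the platelet genes Pf4 (80.1) and Itga2b (74.98). All 14 in the authors' deposited table summed to 186 FPKM in J2E and 199 FPKM in J2E-KLF3-ER, and 3 of them, Mcpt8, Cpa3 and Cd34, were listed at 0 in J2E. The part of both marker sets in the results was not tested. Klf3 itself, in the authors' deposited table, was at 7.46 FPKM in J2E and 180 FPKM in J2E-KLF3-ER, where reads of the fusion and the resident gene share a row. Library depths are unknown here, since no counts were used. In bulk RNA, fewer cells that make a transcript and less of it per cell cannot be told apart.

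The motif letters that KLF proteins recognise were looked for in the promoter windows that RefSeq gives for the genes of the exonic sites (build GRCm38.p6, 250 bases before to 50 after the start site). The stretches below, 5′ to 3′ along the gene, show the KLF-type match nearest the start site at selected genes. These were genes of the 6 highest exonic sites per list where the site lay within 1 kb of the start site. Klf1 was added, as were genes with exonic sites of both factors that the authors' deposited table called lower in J2E-KLF3-ER. The choice thus rests in part on the RNA result, and other genes with exonic sites of both factors, such as Lyl1, are not shown. Capitals mark CCNCNCCC or its reverse complement. The windows are on another build than the peaks and end 50 bases after the start site, short of the exonic summits at the distances the authors gave.
Herc4 (chr10:63243771-63243800, + strand): ctcccctccccCCTCCCCCgcgaaaccacc
Aldh9a1 (chr1:167349972-167350001, + strand): acgaggccacgCCCCTCCCactgtcccttc
Anxa7 (chr14:20479940-20479969, - strand): ccgcccatgcgCCACGCCCtctggctccat
Tuba1c (chr15:99029829-99029858, + strand): cttcagctccaCCCCTCCCactgtgccgtc
Tgfb1 (chr7:25686944-25686973, + strand): gcgcgcttcctGGGTGGGGccggggcggct
Xbp1 (chr11:5520579-5520608, + strand): aagtgggggggGGGGGGGGacgggacgggg
Sox12 (chr2:152398083-152398112, - strand): agacggcgaggGGGAGGGGagcgagcgcgc
In Herc4, Aldh9a1, Anxa7 and Tuba1c the match lies on the gene strand, and in Tgfb1, Xbp1 and Sox12 on the opposite strand. The match in Xbp1 is part of a longer run of G. The windows of Klf1, Jund and Map3k6 held no CCNCNCCC on either strand. Cyfip1, Ier2 and Phlda1 had no window under these names, so no sequence was read for them.

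Of the 248 genes with an exonic KLF3 site, 206 had a window (83.1%), and 148 of those windows held CCNCNCCC on either strand (71.8%, 95% exact interval 65.2 to 77.9). The share was 88.8% for genes with a KLF3 peak of the promoter class and 59.8% for all genes of the RNA table that had a window (75.9% of them did). Over all 32851 windows of the RefSeq table it was 49.5%. CCNCACCC, a subset of the same letters that spells the CACCC box, stood in 55 of the 206 windows (26.7%), against 20.5% for all genes of the RNA table with a window and 16.6% of all windows. AGATAA, the letters that GATA factors bind, stood in 16 (7.77%), against 11.1% and 11.2%. Of the 177 genes with an exonic KLF1 site, 131 had a window (74.0%), and 98 of those held CCNCNCCC (74.8%, 66.5 to 82.0). The share was 92.4% for genes with a KLF1 peak of the promoter class. Genes without a window were not read in any of these sets, so the shares cover the matched genes only.

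Exonic sites were a small class in both lists. They were 4.82% of the KLF1 list (95% exact interval 4.16 to 5.55) and 5.66% of the KLF3 list (5.00 to 6.37). The annotation put the promoter first. No peak with its summit within 100 bp of a start site, and none within 1 kb upstream of one, was in another class than promoter, and the exonic sites begin at 101 bp. In the KLF1 list 158 of 1200 promoter peaks also carried the code for an exon, and in the KLF3 list 484 of 3043 did. These first-exon summits are outside the exonic classes. Between 101 and 300 bp downstream of a start site the KLF3 list had 110 UTR, 30 CDS, 128 intron and 64 promoter summits, and the KLF1 list had 50, 10, 58 and 22.

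KLF3's exonic sites lay closer to start sites than KLF1's did, as was true of the whole lists. Exonic KLF3 summits had a median distance of 267 bp to the nearest start site, and exonic KLF1 summits one of 1516 bp. The medians of the whole lists were 159 bp for KLF3 and 2738 bp for KLF1, so the difference is not particular to exonic sites. Within 1 kb lay 193 of the 259 KLF3 sites (74.5%, 95% exact interval 68.8 to 79.7), against 81.2% of the whole KLF3 list. For KLF1 it was 84 of 183 (45.9%, 38.5 to 53.4), against 41.0% of the whole KLF1 list. More than 10 kb away lay 15 exonic KLF3 sites and 38 exonic KLF1 sites. The UTR sites were nearer, with medians of 203 bp in the KLF3 list and 489 bp in the KLF1 list, and the CDS sites were farther, with medians of 615 bp and 5962 bp.

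**Figure D1:**
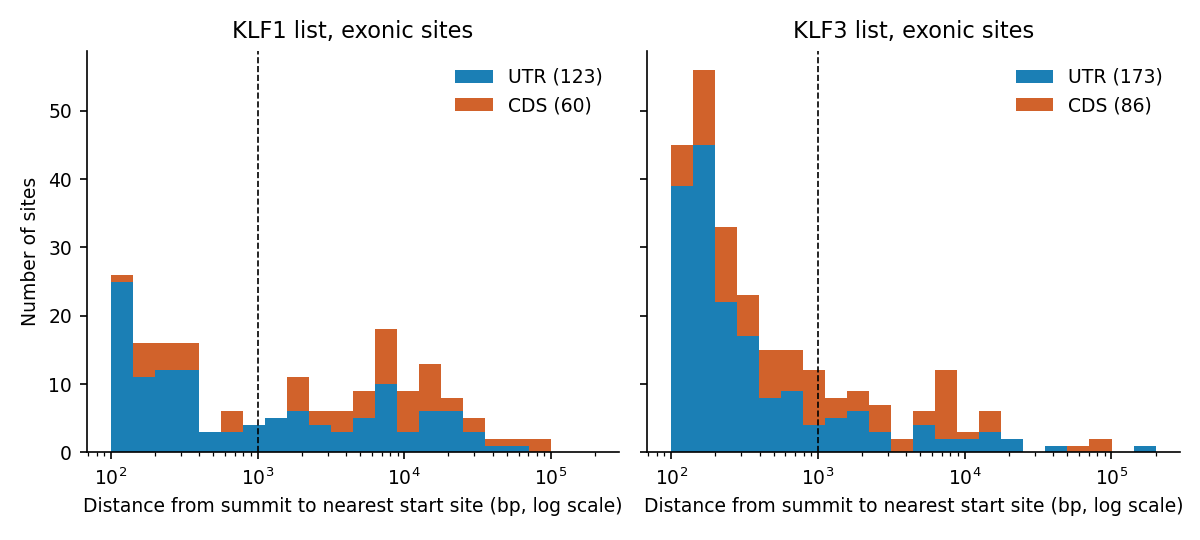
Distance from the summit of each exonic site to the nearest start site (bp, log scale) in the KLF1 and KLF3 lists; stacked bars count UTR and CDS sites, and the dashed line is at 1 kb. The KLF3 sites crowd below 1 kb (193 of 259), whereas 99 of 183 KLF1 sites lie beyond it.

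Most sites lay downstream of the start site they were assigned to, 237 of 259 for KLF3 (91.5%) and 154 of 183 for KLF1 (84.2%). Within 1 kb this is fixed by the annotation, which leaves only promoter peaks upstream. Beyond 1 kb, 44 of 66 KLF3 sites (66.7%) and 70 of 99 KLF1 sites (70.7%) lay downstream. For other peaks beyond 1 kb the shares were 55.7% and 58.6%. The summit fell inside the row of its assigned gene for 233 KLF3 sites (89.96%) and 146 KLF1 sites (79.8%). For intron peaks these shares were higher, 95.9% and 87.9%. All of the other 26 and 37 exonic sites fell inside the row of another gene, so that the site was exonic in one gene and assigned to a neighbour. Rows are the gene spans of the RNA table, which can join overlapping genes. Of 160 KLF3 UTR sites inside their gene, 123 lay in its first 10%, 34 in the middle and 3 in the last 10%. The 97 KLF1 UTR sites inside their gene were divided 61, 24 and 12. The median position of these UTR sites along the gene was 1.39% for KLF3 and 2.35% for KLF1. CDS sites had a median position of 4.66% along the gene for KLF3 (73 sites) and 37.8% for KLF1 (49 sites). Across chromosomes the exonic share ran from 1.67% (16) to 6.98% (8) of KLF1 peaks and from 3.48% (5) to 8.33% (X) of KLF3 peaks.

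Part of the sites were listed for both factors. Of the 183 exonic KLF1 sites, 82 overlapped a KLF3 peak by at least 1 bp (44.8%, 95% exact interval 37.5 to 52.3). The whole KLF1 list was shared at 39.3%, inside that interval. The exonic share lay between the promoter class (72.9%) and the intron (22.9%) and distal (21.7%) classes. Of the 259 exonic KLF3 sites, 79 overlapped a KLF1 peak (30.5%, 24.95 to 36.5), and the whole KLF3 list, at 34.0%, was again inside the interval. The exonic share was close to the promoter class (30.7%) and below the intron (40.6%) and distal (46.7%) classes. The UTR sites were shared at 48.8% (60 of 123) in the KLF1 list and 35.3% (61 of 173) in the KLF3 list. CDS sites were shared at 36.7% (22 of 60) and 20.9% (18 of 86, 12.9 to 31.0). No test between classes was made, since each list comes from 1 library.

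The overlap moved with distance. Exonic KLF1 sites within 1 kb of a start site were shared at 64.3% (54 of 84, 53.1 to 74.4), against 70.0% of other KLF1 peaks in that range. Beyond 1 kb it was 28.3% (28 of 99, 19.7 to 38.2), against 17.7% of other KLF1 peaks. In the KLF3 list the order was the other way round. Exonic KLF3 sites within 1 kb were shared at 28.0% (54 of 193, 21.8 to 34.9) and those beyond at 37.9% (25 of 66, 26.2 to 50.7), against 31.5% and 46.6% of other KLF3 peaks, with intervals that overlap.

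**Figure D2:**
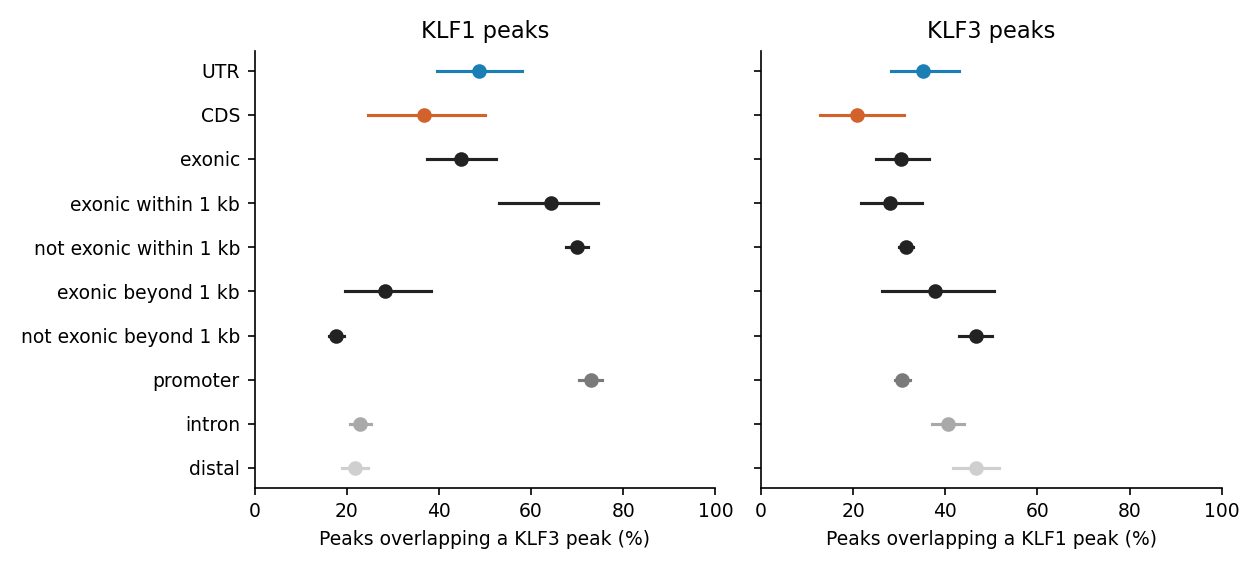
Share of peaks that overlap a peak of the other factor by at least 1 bp (%), by annotation class and by distance from the start site; points are shares and bars are 95% exact intervals, which cover counting error only. Exonic KLF1 peaks sit at 44.8% between promoter (72.9%) and intron (22.9%) peaks, and exonic KLF3 peaks at 30.5% beside promoter peaks (30.7%). The whole lists, not drawn, are at 39.3% for KLF1 and 34.0% for KLF3, inside the exonic intervals.

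Where both factors were listed, the summits were close. The median gap was 40.5 bp for the 82 shared KLF1 sites and 32 bp for the 79 shared KLF3 sites, and 51 and 52 of them had a gap of at most 50 bp. The partner peak was itself exonic for 58 of 82 KLF1 sites and 58 of 79 KLF3 sites, and promoter or intron for the rest. An exonic site of both factors was found in 56 genes, which are 31.6% of the genes with an exonic KLF1 site and 22.6% of those with an exonic KLF3 site.

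The authors' enrichment ratio ranks peaks within a list and is used here only in that way. Exonic sites were of ordinary to low rank. Their median ratio was 9.20 in the KLF1 list (95% interval 8.55 to 10.1), against 10.5 for promoter, 9.42 for intron and 9.39 for distal peaks. In the KLF3 list it was 6.53 (6.20 to 6.91), against 8.49 for promoter, 7.05 for intron and 7.53 for distal peaks. The highest 10% of the list contained 18 exonic KLF1 sites (9.84%) and 16 exonic KLF3 sites (6.18%). Exonic sites shared with the other factor had higher medians than the unshared, 10.2 against 8.56 for KLF1 and 7.21 against 6.46 for KLF3. The same held for the whole lists, 11.6 against 9.04 for KLF1 and 9.18 against 7.59 for KLF3, so it is not particular to exonic sites. The last peak of each list was a UTR site, at Pafah1b1, a dynein regulator gene, for KLF1 (3.41) and at Anapc5, a subunit gene of the anaphase-promoting complex, for KLF3 (2.93).

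**Figure D3:**
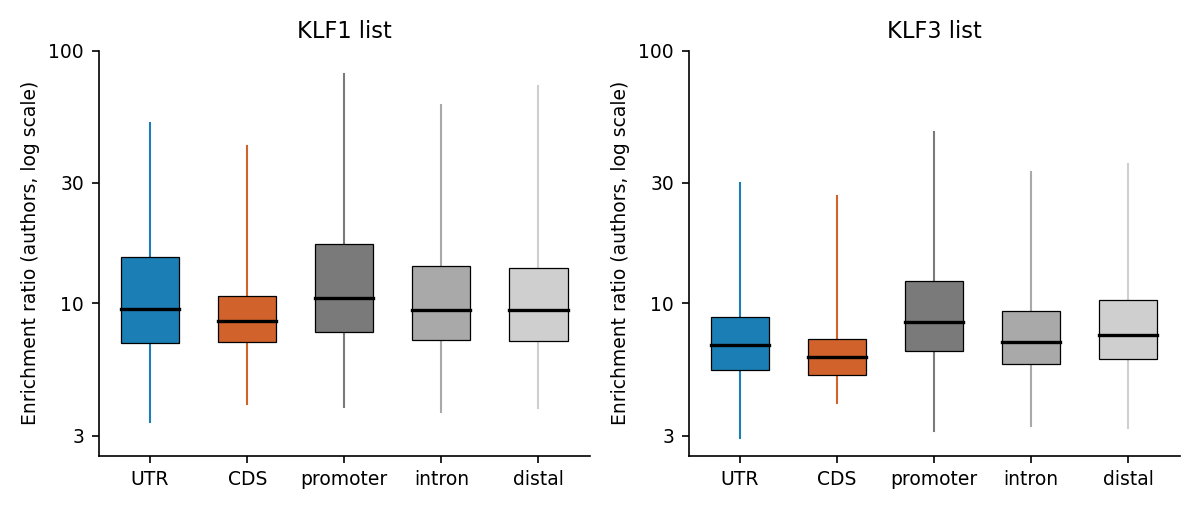
Authors' enrichment ratio (log scale) of peaks by annotation class in each list; boxes span the quartiles, the thick line is the median and the thin line the whole range. In the KLF3 list the UTR and CDS medians (6.83 and 6.14) lie below the promoter median (8.49); ratios are not compared between the lists.

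The strongest exonic KLF3 site was in the 5′ part of Herc4, a HECT ubiquitin ligase gene (chr10:62706385-62706948 on mm9, ratio 30.1, summit 110 bp downstream of the start site). It was followed by a UTR site in Ier2, an immediate early gene (chr8:87185422-87185773, 29.8, 1159 bp downstream). The next was a CDS site in Klf1 (chr8:87427133-87427548, 26.6, 1509 bp). Xbp1, whose product is a transcription factor of the unfolded protein response, had a UTR site (chr11:5420695-5421106, 24.4, 267 bp). Phlda1 had a CDS site at 23.9 and the alpha-tubulin gene Tuba1c a UTR site at 23.1. Of these 6, the Klf1 and Xbp1 sites overlapped no KLF1 peak. Other high KLF3 sites without a KLF1 peak were a CDS site of the mannosidase gene Man2c1 (21.5) and a UTR site of the nucleoporin gene Nup160 (19.4).

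The strongest exonic KLF1 site was assigned to Snhg3, a snoRNA host gene (chr4:131912187-131912594, ratio 51.9). Its summit lay 2775 bp from the Snhg3 start site on the upstream side and inside the row of Phactr4. Cyfip1, a WAVE complex gene, had a UTR site at 44.0 (chr7:63097249-63097835, 147 bp downstream). A CDS site at 42.1 was assigned to Cd52, 13108 bp away, and lay in the row of Aim1l. UTR sites of the annexin gene Anxa7 (39.1), the aldehyde dehydrogenase gene Aldh9a1 (37.2) and Tuba1c (36.6) came next. All 6 overlapped a KLF3 peak, with summit gaps of 4 to 38 bp. The highest without one were at Xrcc3 (34.9), Birc5 (29.8), Prph2 (26.4) and Sh2d4a (25.1). Of these, the summit assigned to Birc5, the survivin gene, lay in the rows of Afmid and Tk1, and that assigned to Prph2 in Ubr2. The summit assigned to Xrcc3 lay 19432 bp from its start site, where the spans of Xrcc3 and Klc1 overlap or are joined.

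Several sites of both factors sat on the same spot. At Lyl1, a basic helix-loop-helix factor gene of blood progenitors, KLF1 had a UTR site 253 bp downstream of the start site (24.2) and KLF3 one at 272 bp (16.6). A second pair assigned to Lyl1, at 6366 bp for KLF1 (28.7) and 6356 bp for KLF3 (7.60), lay in the row of Nfix. The pair assigned to Gp9, a platelet glycoprotein gene, had identical summits (22.9 for KLF1 and 8.26 for KLF3) and lay in the row of Rab43, 12802 bp from Gp9. Herc4, Tuba1c, Cyfip1, Rabgap1l and Kctd7 were further genes with exonic sites of both. Lyl1 transcription in the authors' deposited table was 92.8 FPKM in J2E and 92.4 FPKM in J2E-KLF3-ER (q = 0.99, not called).

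The farthest sites were assigned across other genes. The exonic KLF3 site most distant from its start site was assigned to Phtf2, 179986 bp away, with its summit inside Magi2. Nrip1, a nuclear receptor corepressor gene, had a KLF3 CDS site 79159 bp downstream of its start site, 96.3% along its own row. The most distant KLF1 site, assigned to Rab11a at 99296 bp, lay in Megf11. A KLF1 CDS site 57845 bp into the centrosomal gene Cep164 lay inside that gene, 93.8% along it.

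The RNA comparison asked how transcription differed between J2E-KLF3-ER and J2E. The authors' deposited table called 183 of its 9619 tested genes lower at q below 0.05 (1.90%) and 79 higher (0.821%), with a median log2 fold change of 0.03. Of 248 genes with an exonic KLF3 site, 213 were tested, and the authors' deposited table has 14 of these falling (6.57%) and 1 rising (0.47%), with a median of -0.06. Of 177 genes with an exonic KLF1 site, 115 were tested, and the authors' deposited table has 8 falling (6.96%) and 1 rising (0.87%), with a median of -0.06. The shares that fell among all tested genes of the lists were 2.95% for KLF3 (92 of 3114) and 4.09% for KLF1 (75 of 1835). Where every listed peak of a gene was exonic, the authors' deposited table has 2 of 67 tested genes falling for KLF1 (2.99%), with a median log2 fold change of 0.14, on the other side of 0. The same count for KLF3 was 8 of 122 (6.56%), with a median of -0.05. No test over the members was made, because the list was chosen with results of these data known. For both genes that rose, the exonic summit lay in another gene's row, though Gapdh also had other listed peaks near its start site.

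Of the 14 falling genes with an exonic KLF3 site, 9 had one beyond 1 kb of the start site. Of 45 tested genes with an exonic KLF3 site beyond 1 kb, 9 fell (20.0%), against 36 of 456 genes with another KLF3 peak beyond 1 kb (7.89%). With a site within 1 kb, 7 of 173 fell (4.05%), against 2.46% of genes with another KLF3 peak in that range. Jund and Junb count on both sides of the 1 kb limit. Genes with an exonic site and genes with another peak are not separate groups. Beyond 1 kb, the falling genes Ier2, Junb, Sox12, Map3k6 and Gata2 count in both. The 9 were Klf1, Ier2, Jund, Junb, Bhlhe41, Sox12, Map3k6, Otud1 and Gata2. In Jund (1021 bp) and Otud1 (1014 bp) the site lies just past the 1 kb limit. In the KLF1 list 5 of 57 tested genes with a site beyond 1 kb fell (8.77%) and 4 of 61 within (6.56%). The genes whose row holds a summit assigned to a neighbour, 17 tested for KLF3 and 25 for KLF1, included 0 that fell and 0 that rose at the authors' q below 0.05.

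Klf1 itself held 2 exonic KLF3 sites and no KLF3 peak of another class. The sites were in its coding sequence 1509 and 2923 bp downstream of the start site, 44.8% and 86.8% along the gene (chr8:87425827-87429194), with ratios of 26.6 and 14.2. Klf1 transcription in the authors' deposited table was 122 FPKM in J2E and 55.6 FPKM in J2E-KLF3-ER (log2 fold change -1.14, q = 0.00408). That q is the lowest in the table and is shared by other genes, such as Ier2, Jund and Bhlhe41, so it does not rank Klf1 among them. The KLF1 list assigned no peak to Klf1, and it was made in cells null for KLF1, so the locus cannot be compared between the lists.

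The early response genes Ier2, Jund and Junb, which encode an immediate early protein and the JUN subunits of AP-1, all fell. As background, none of these genes has an intron, so a site within the transcript that is not of the promoter class is UTR or CDS. Ier2 was, by the authors' deposited table, at 165 FPKM in J2E and 87.4 FPKM in J2E-KLF3-ER (log2 fold change -0.92, q = 0.00408). Its KLF1 (25.6) and KLF3 (29.8) summits lay 15 bp apart at 1174 and 1159 bp, and KLF1 had a second summit in the same interval at 1516 bp (5.88). Jund went, by the authors' deposited table, from 9.46 to 4.19 FPKM (log2 fold change -1.17, q = 0.00408). KLF3 summits at 740 bp (8.81) and 1021 bp (11.97) and KLF1 summits at 713 bp (14.7) and 1047 bp (5.22) lay in pairs. Junb went, by the authors' deposited table, from 65.0 to 33.7 FPKM (log2 fold change -0.95, q = 0.00408), with exonic sites of KLF3 alone, at 984 bp (CDS, 7.68) and 1360 bp (UTR, 5.82). KLF1 had peaks outside the exons of Junb, one of the promoter class at a ratio of 31.2.

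**Figure D4:**
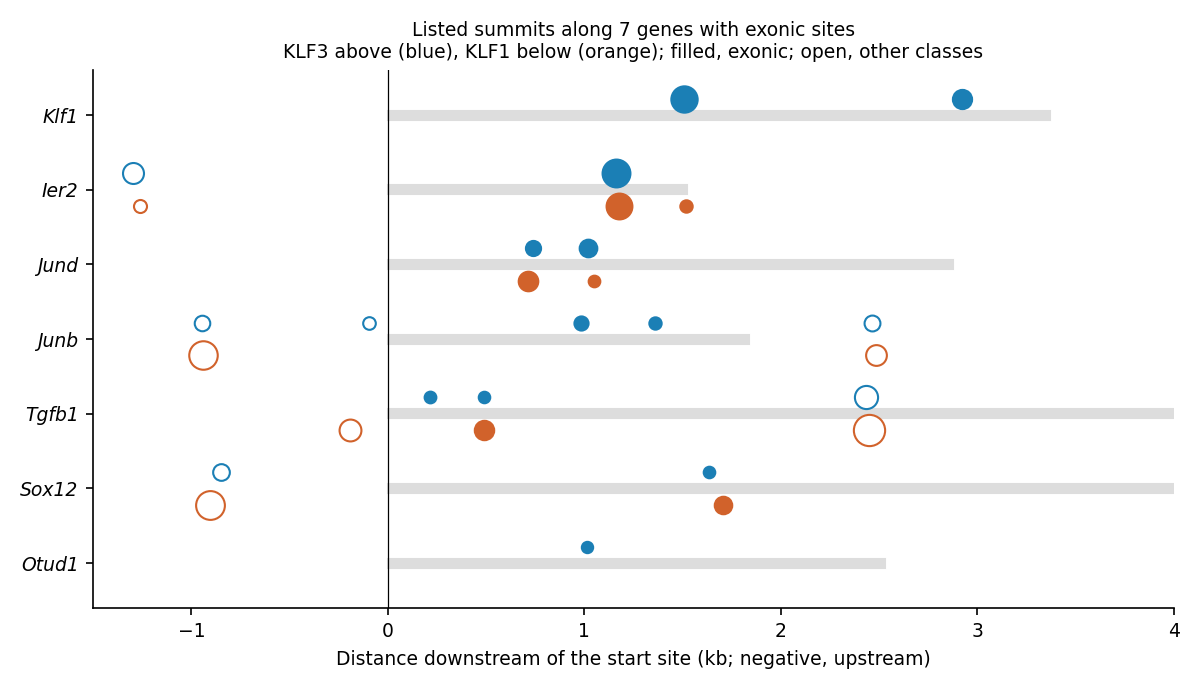
Summits listed for 7 genes with exonic sites that fell, by distance downstream of the start site (kb); KLF3 above and KLF1 below each grey gene bar, filled for UTR and CDS, open for other classes, with symbol area proportional to the authors' ratio, which is comparable within a list only. In this range Klf1 and Otud1 carry KLF3 summits alone, and the filled summits of Jund lie in KLF1 and KLF3 pairs, while Ier2 has 1 such pair and a further KLF1 summit; bars longer than 4 kb are clipped.

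Tgfb1, Sox12 and Map3k6, along with Ier2 and Jund, made 5 of the 44 tested genes with exonic sites of both factors, and these 5 fell (11.4%) while 0 rose. Tgfb1, the gene of a growth-inhibitory cytokine, had UTR summits of KLF1 at 489 bp (14.5) and of KLF3 at 490 bp (5.09), with another KLF3 summit at 215 bp (5.28). It went, by the authors' deposited table, from 85.8 to 49.5 FPKM (log2 fold change -0.79, q = 0.00408). The higher peaks of Tgfb1 were in its intron, 37.5 for KLF1 and 20.6 for KLF3. Sox12, a gene of the SOXC transcription factors, had UTR summits at 1705 bp (KLF1, 11.8) and 1633 bp (KLF3, 5.13), and higher peaks of the promoter class, 31.8 for KLF1 and 10.7 for KLF3. Its level went, by the authors' deposited table, from 14.2 to 7.16 FPKM (log2 fold change -0.99). Map3k6, a kinase gene of the MAP kinase cascade, had CDS summits 21 bp apart, at ratios of 9.04 (KLF1) and 5.11 (KLF3). By the authors' deposited table it fell by 0.90 on the log2 scale, and intron peaks of both factors lay nearer its start site.

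Among genes with an exonic site of KLF3 alone, the largest fall was in Bhlhe41, a basic helix-loop-helix repressor gene with a CDS site 2250 bp downstream (7.24). It went, by the authors' deposited table, from 27.6 to 9.18 FPKM (log2 fold change -1.59, q = 0.00408), and had no other listed peak. Cdkn1b, which encodes the cell cycle inhibitor p27 and was on the list of KLF1 targets, had a UTR site at 243 bp (8.19). Its level was, by the authors' deposited table, 11.3 FPKM in J2E and 4.96 FPKM in J2E-KLF3-ER (log2 fold change -1.19, q = 0.00707). Xbp1, by the authors' deposited table, was at 18.0 FPKM in J2E and 9.32 FPKM in J2E-KLF3-ER (log2 fold change -0.95, q = 0.00408). The log2 value of Otud1, a deubiquitinase gene, fell by 1.01 in the authors' deposited table (q = 0.0168). Those of Cln8 and Abhd5, genes of an endoplasmic reticulum protein and a lipid droplet protein, fell by 1.00 and 0.92 in the authors' deposited table. KLF1 peaks outside exons were listed for Abhd5 (intron, 27.4) and Otud1 (intergenic, 9.04). Gata2, the GATA factor of blood progenitors, went, by the authors' deposited table, from 99.0 to 67.4 FPKM (log2 fold change -0.55, q = 0.0231). Its CDS site was weak (4.16), and KLF3 peaks of the intron, distal and promoter classes were listed for it as well.

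Genes with an exonic site of KLF1 alone that fell were Neat1, Bbc3 and Maz. Neat1, the long noncoding RNA of paraspeckles, had its site 941 bp downstream (16.7) and went, by the authors' deposited table, from 63.7 to 29.5 FPKM (log2 fold change -1.11). Distal peaks of KLF1 (8.60) and KLF3 (7.97) overlapped upstream of the Neat1 start site. Bbc3, the gene of the pro-apoptotic protein PUMA, had a KLF1 CDS site at 4094 bp (10.9) that overlapped an intron peak of KLF3. It went, by the authors' deposited table, from 27.5 to 10.8 FPKM (log2 fold change -1.36). Maz, a zinc finger gene, by the authors' deposited table fell by 0.58 on the log2 scale (q = 0.0213) and had a CDS site at 152 bp (8.33). By log2 fold change in the authors' deposited table, the rising genes were Ahcy in the KLF3 list (0.63, q = 0.0439) and Gapdh in the KLF1 list (0.70, q = 0.00707). The KLF3 summit assigned to Ahcy lay in the agouti gene row 23590 bp away, and the exonic KLF1 summit assigned to Gapdh lay in Iffo1. Gapdh also had KLF3 promoter peaks 76 bp (5.65) and 977 bp (6.09) upstream of its start site. A distal KLF1 peak lay 1004 bp upstream of it (11.3).

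**Figure D5:**
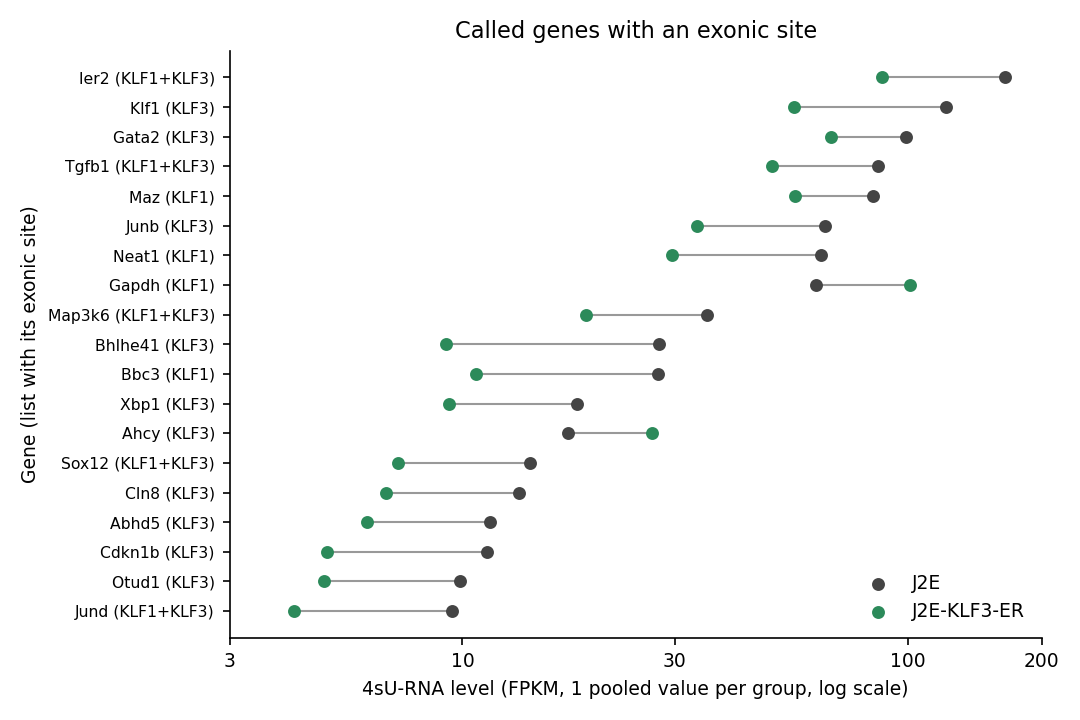
4sU-RNA level (FPKM, log scale) in J2E and J2E-KLF3-ER for the 19 called genes with an exonic site, with the list or lists holding the site in parentheses; each point is the authors' pooled value of 3 libraries, so no error bar can be drawn. For 17 genes the J2E-KLF3-ER value is the lower one, and for Gapdh and Ahcy the higher.

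Of the 6 highest exonic KLF3 sites, 3 were at genes that fell (Ier2, Klf1 and Xbp1) and 3 at genes that were not called. Of the 6 highest exonic KLF1 sites, 5 were at genes that were not called and 1 at Cd52, which was not tested. Herc4 (17.2 and 19.1 FPKM), Phlda1 (67.7 and 84.7), Tuba1c (20.5 and 15.9), Cyfip1 (12.1 and 12.8) and Aldh9a1 (10.6 and 11.6), given as J2E and J2E-KLF3-ER, were not called in the authors' deposited table.

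Exonic sites in the gene lists can be read against all 23309 named rows of the RNA table, of which 0.759% had an exonic KLF1 site and 1.06% an exonic KLF3 site. Calls in the lists can be read against all 9619 tested genes, of which 1.90% fell and 0.821% rose in the authors' deposited table. Of 20 heme and iron genes, only Ppox, a heme synthesis enzyme gene, had one, a KLF1 UTR site (6.45), although 12 had some KLF1 peak. Of 23 red cell membrane and blood group genes, only Sptb, the beta-spectrin gene, had them, UTR sites of KLF1 (6.39) and KLF3 (5.85) 23 bp apart. By log2 fold change in the authors' deposited table, neither Ppox (0.37) nor Sptb (0.12) was called. Of the 18 and 20 tested members of these lists, 1 and 3 fell and 0 rose. Of 20 erythroid factors, 16 tested with 4 falling, Gata2 alone had an exonic site. Of 27 KLF1 targets, 23 tested with 6 falling and 1 rising, only Cdkn1b did. The KLF and SP family, 21 genes of which 15 were tested, 5 fell and 2 rose, had exonic sites at Klf1 and at Sp4, where UTR sites of KLF1 (22.4) and KLF3 (10.3) lay 48 bp apart. Of 10 CtBP corepressor genes, all tested, 0 had an exonic site, 0 fell and 0 rose at the authors' q below 0.05. Early response genes numbered 15, of which 12 were tested, 6 fell and 1 rose, and 3 had exonic sites. Of the 14 markers of other blood cells, 4 were tested and none of these 4 was called.

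The KLF1 list also marks peaks whose nearest gene the authors listed up or down between K1 and K1-ER, without saying which line is the numerator. Of 183 exonic sites, 29 were marked up (15.8%, 95% exact interval 10.9 to 22.0), against 19.0% of the whole list, and 1, at Golph3, was marked down, against 0.526%. The share marked up was 22.0% for exonic KLF1 sites shared with KLF3 (18 of 82, 13.6 to 32.5) and 10.9% for the others (11 of 101, 5.56 to 18.7). Of the 8 genes with an exonic KLF1 site that fell with KLF3-ER, 6 were marked up: Ier2, Jund, Neat1, Tgfb1, Bbc3 and Map3k6. They are 75% of the falling genes and 27.3% of the 22 tested genes marked up. For genes with any KLF1 peak the same shares were 57.3% (43 of 75) and 14.8% (43 of 291).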

How the data were processed

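The authors' peak tables hold, per the file headers, a fold enrichment (ratio) for each peak, its summit, an annotation class with a numeric code, and the nearest start site. The deposited RNA table has, per the file headers, pooled FPKM values (1 for each group), the log2 fold change of J2E-KLF3-ER over J2E and the authors' p-value and q-value. A score of the authors' test, also deposited, was not used. The submitters' processing notes name the build mm9 and the tools TopHat2 2.0.10, MACS 1.4.2 and MACS2, without roles. What each bit of the annotation code means was read from its values. Per-sample columns that were left unused numbered 0.

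Members and gene lists were chosen with earlier results of these data known. Peaks were joined to genes by the authors' assignment, at any distance, and to the other list by an overlap of at least 1 bp. No per-sample counts were used, so the authors' own test stands in for one: genes were called at the authors' q below 0.05 over 9619 tested genes; 102 rows join several gene names. Shares carry 95% exact (Clopper-Pearson) intervals and medians order-statistic intervals; they cover counting error only. Named sites were the 6 highest and 2 lowest per list, members of the gene lists, called genes (up to 12 each way, largest first), up to 8 genes with sites in both lists, genes with several sites, the 3 farthest and the 4 highest unshared. Other genes named were chosen after their values were seen: hosts of summits, markers and Golph3. Alternatives were other overlap rules, peaks above the median ratio, distinct intervals, other thresholds and pseudocounts. Python 3.11.15, pandas 2.3.3, NumPy 2.4.6, SciPy 1.17.1 and matplotlib 3.10.9 were used, and the overlap and interval code was tested on simulated data.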

Additional observations from a re-analysis of the deposited data

How the results depend on the processing

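Of 50 alternatives to the summary values, 33 left them within the margin and 17 moved them; the cause was not tested except where fewer genes or peaks were counted by construction. The overlap of exonic KLF1 sites with KLF3 went from 44.8% to 35.5% when summits had to lie within 100 bp and to 24.7% among peaks at or above the median ratio of each list; for KLF3 it went from 30.5% to 23.6% with the summit rule. Exonic sites were 3.54% of KLF3 peaks at or above the median ratio, against 5.66% of all, and 65.3% of exonic KLF3 sites lay within 500 bp. Genes with an exonic KLF1 site that fell numbered 13 at an unadjusted p below 0.01, 5 with the site beyond 1 kb and 2 where every listed peak of the gene was exonic, against 8. Those that rose numbered 2 at q below 0.10, 4 at an unadjusted p below 0.01, and 0 with the summit inside the assigned gene or where every listed peak was exonic, against 1. For KLF3, 9 fell with the site beyond 1 kb and 8 where every listed peak was exonic, against 14, and 3 rose at q below 0.10, 5 at an unadjusted p below 0.01 and 0 with the summit inside the gene, against 1. The rules on summits inside the gene and on genes with exonic peaks only were chosen after seeing the data. Pseudocounts of 1 and 0.1 changed the sign of 0 of 19 named genes. No paired analysis was possible because the deposited RNA values are 1 pooled value per group and carry no replicate; leaving out a replicate or the vehicle library was not run for the same reason. With 1 library per factor, the spread of the overlap between replicates is unknown, and so is the depth behind each FPKM value.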

Other observations

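A small set of genes held several exonic sites in 1 list, 6 genes for KLF1 and 11 for KLF3. Besides those described, they included Vgf, a neuropeptide precursor gene that was barely transcribed (in the authors' deposited table at 1.10 FPKM in J2E, at 0.23 FPKM in J2E-KLF3-ER and not tested). Its exonic sites were CDS and UTR sites of KLF1 at 1709 bp (4.61) and 2717 bp (10.3) and of KLF3 at 923 bp (5.53) and 2669 bp (7.23). B4galt1, a galactosyltransferase gene, had KLF3 sites at 462 bp (13.8) and 1011 bp (5.07) in 1 interval, and Btbd6 had KLF3 CDS sites at 321 bp (6.44) and 127 bp (4.43). Neither B4galt1 (log2 fold change -0.29) nor Btbd6 (-0.59) was called in the authors' deposited table. At the Btbd6 sites the spans of Btbd6 and Brf1 overlap or are joined.

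Exonic sites were often the only peaks of a gene in the list. For KLF1 this held for 112 of 177 genes (63.3%) and for KLF3 for 149 of 248 (60.1%). Genes with a single peak are common in both lists, so this is not particular to exonic sites. The whole KLF1 list had 3800 peaks for 2773 genes and the whole KLF3 list 4579 peaks for 3760 genes. Another 78 genes with an exonic KLF3 site (31.5%) also had a promoter peak of KLF3, and 25 genes with an exonic KLF1 site (14.1%) a promoter peak of KLF1. A listed interval can hold several summits, and 44 of the 259 exonic KLF3 sites and 8 of the 183 exonic KLF1 sites shared their interval with a promoter summit. Of genes with an exonic KLF1 site 65.0% were tested in the authors' deposited table, and of genes with an exonic KLF3 site 85.9%.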
